A study of Mus musculus with 38 samples.

Results

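The mitochondrial ribosome makes the few proteins that mitochondrial DNA encodes, all of them subunits of the respiratory chain and ATP synthase. Its own proteins are encoded in the nucleus, made in the cytosol and imported, and most carry symbols beginning with Mrpl (large subunit) or Mrps (small subunit). Soleus is an oxidative muscle rich in mitochondria. They were examined as the 79 clusters of transcription start sites, of 10819 clusters in the table, whose peak lay within 500 bp and on the same strand of an annotated 5′ end of a protein-coding gene with such a symbol. All 78 annotated genes had a cluster, 49 by symbol in the large subunit with 50 clusters and 29 in the small subunit with 29 clusters. Mrpl14, a large-subunit protein shared with bacterial ribosomes, was the gene with more than 1 cluster (p1 and p2). Symbols and structures do not always agree: Mrps30 and Mrps18a sit in the large subunit, and Mrps36 is now known as a subunit of the 2-oxoglutarate dehydrogenase complex.

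The study asked which promoters of skeletal muscle change when fasted mice enter daily torpor, a reversible fall in metabolism and body temperature. RNA 5′ ends of soleus from 38 C57BL/6J mice were sequenced by non-amplified CAGE (cap analysis of gene expression), 1 library per mouse. The Pre mice were fed freely and sampled on day 1, the Mid mice had food withdrawn and were sampled on day 2, when the fast induces torpor, and the Post mice had food back on day 3. Control groups were sampled on day 2: HiT at a high ambient temperature that prevents torpor, Fed with food, and Dep, which were kept from torpor by touching while food was withdrawn. The labels disagree on the food of HiT and Fed: the design text gives food to HiT where the study's methods describe a fast, and the condition label of Fed reads starvation where the design text and methods describe feeding at low ambient temperature. The groups are therefore called by their names. All mice were wild-type males, and Mid mice were taken at whatever metabolic state they were in, so torpid mice and mice between bouts may be in the same group.

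Run 1 held 8 libraries of Mid and 4 each of Pre, Post, HiT, Dep and Fed, and run 2, from a separate set of mice, held 2 Pre, 5 Mid and 3 Post libraries. Libraries of run 1 held 18257657 to 39176649 tags in the clusters of the table and those of run 2 held 9359994 to 20914855. Between 0.299% and 0.591% of the tags of a run 1 library, 74446 to 207175 tags, lay in the 79 clusters, and no cluster had under 43 tags in any library. Defining markers of slow and fast muscle fibres were abundant in every group. The summed level of the 11 fast markers exceeded that of the 7 slow markers in each group, and shares of fibres were not measured. HiT libraries stood apart in the summed level of 7 macrophage markers (170 to 385 CPM, tags scaled to library size, against 58.3 to 88.6 in Pre and 55.8 to 84.1 in Mid). In bulk muscle, fewer cells of a type and less RNA per cell cannot be told apart. Levels are CPM scaled by the trimmed mean of M values (TMM) within each run. A CAGE tag marks 1 transcript start, so transcript length does not enter the level. Levels of some promoters differed widely between runs, as given for Mrpl42 at the end, so ranks of genes by level are descriptive.

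Most clusters began where the annotation places the gene. Of the 79 peaks, 76 lay within 100 bp of an annotated start and 47 within 10 bp, with a median distance of 8 bp. The exceptions were Mrpl47 at 397 bp, Mrps7 at 224 bp and Mrps28 at 102 bp. Cluster widths ran from 114 to 750 bp with a median of 242 bp, beside 288 bp for clusters of all protein-coding genes. The median of the mean deposited TPM (the authors' tags scaled to library size) over the 38 libraries was 45.5, against 17.4 for all clusters, and 71 of the 79 lay above that. The highest were Mrpl54 (151), Mrpl12 (150), Mrpl51 (146), Mrpl33 (143) and Mrpl37 (132), and the lowest were Mrps33 (8.28), Mrpl27 (11.9) and Mrpl22 (12.3). These means pool both runs, whose levels differ by promoter. By mean CPM the 5 highest were Mrpl51, Mrpl37, Mrpl54, Mrps34 and Mrps15 in run 1 and Mrpl12, Mrpl33, Mrpl54, Mrps18a and Mrpl51 in run 2. The p1 promoter of Mrpl14 had a mean of 96.5 and p2, further downstream, 41.4. The clusters of Mrpl33, Mrps18c and Mrps6 shared their window with other genes (Gm43809, Gm43511, and both Gm49711 and Slc5a3, in that order), and their tags cannot be told apart by position.

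Of the 79 clusters, 13 (16.5%) had another on the other strand with its peak within 1000 bp, beside 8.25% of 8772 clusters of protein-coding genes. Partners included Mrps11 for Mrpl46, a pair of mitochondrial ribosomal protein genes with peaks 312 bp apart, and genes of neighbouring functions such as Sars2 (mitochondrial seryl-tRNA synthetase) for Mrps12, Twnk (the mitochondrial DNA helicase) for Mrpl43, Ndufb5 (a complex I subunit) for Mrpl47 and Fau (a cytosolic ribosomal protein) for Mrpl49.

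The start sequences of these genes differed from those of the cytosolic ribosome in the shares given below, and 8 stretches are shown because their clusters carry the results that follow. The sequences are from RefSeq on GRCm38.p6, whose promoter windows held 69 of the 78 genes, and run from 60 bases before the start to 20 bases from it. The single capital is the start base, taken 2 bases downstream of the deposited peak, since a pyrimidine followed by a purine stood at that offset in 79.1% of 4519 clusters and in at most 22.7% at the other offsets tried. Clusters of cytosolic ribosomal protein genes were left out of that choice. A longer run of capitals is a match to a motif of NRF1, ETS factors or YY1. Rps19, a cytosolic ribosomal protein gene, is given for contrast, with the pyrimidine run at its start in capitals. Mrpl22 lies at chr11:58171606-58171685 on the plus strand, Mrpl52 at chr14:54426867-54426946 on the plus strand, Mrpl49 at chr19:6057731-6057810 on the minus strand, Mrps16 at chr14:20393533-20393612 on the minus strand, Mrpl18 at chr17:12916084-12916163 on the minus strand, Mrpl42 at chr10:95501906-95501985 on the minus strand, Mrpl47 at chr3:32736729-32736808 on the minus strand, Mrps30 at chr13:118387231-118387310 on the minus strand and Rps19 at chr7:24884575-24884654 on the plus strand.
Mrpl22: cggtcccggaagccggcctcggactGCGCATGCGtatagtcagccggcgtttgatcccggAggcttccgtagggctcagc
Mrpl52: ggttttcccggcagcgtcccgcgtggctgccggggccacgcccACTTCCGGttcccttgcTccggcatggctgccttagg
Mrpl49: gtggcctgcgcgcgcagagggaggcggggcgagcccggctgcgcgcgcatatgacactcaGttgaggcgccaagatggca
Mrps16: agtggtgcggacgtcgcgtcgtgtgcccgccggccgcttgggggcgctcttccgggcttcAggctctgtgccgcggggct
Mrpl18: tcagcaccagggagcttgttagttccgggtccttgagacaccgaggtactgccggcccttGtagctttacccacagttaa
Mrpl42: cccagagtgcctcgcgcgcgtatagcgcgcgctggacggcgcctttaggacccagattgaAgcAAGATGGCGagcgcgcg
Mrpl47: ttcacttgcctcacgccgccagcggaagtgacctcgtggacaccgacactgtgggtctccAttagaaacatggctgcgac
Mrps30: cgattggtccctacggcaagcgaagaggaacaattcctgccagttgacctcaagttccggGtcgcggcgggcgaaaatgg
Rps19: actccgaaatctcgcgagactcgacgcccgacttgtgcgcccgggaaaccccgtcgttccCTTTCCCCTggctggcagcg

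Of 53 clusters of mitochondrial ribosomal protein genes whose start fell in a RefSeq window, 38 (71.7%) began at a purine after a pyrimidine and 3 (5.66%) began with C. None began with C and 4 more pyrimidines, the terminal oligopyrimidine (TOP) pattern known from mRNAs whose translation follows mTOR activity, and 0 of 53 allows a share of up to 5.66%. Among 46 cytosolic ribosomal protein clusters, 22 (47.8%) began with C, 17 (37%) had the TOP pattern and 2 (4.35%) began at a purine after a pyrimidine. The 51 nuclear respiratory chain clusters, at 72.5% purine starts and 2 (3.92%) TOP-like starts, were closer to the mitochondrial ribosomal protein genes in these shares, and all 4692 clusters had 78.3% and 1.94%. The start base was placed where a purine after a pyrimidine was most common, so high shares of such starts follow in part from that choice. Both comparison lists were drawn by symbol. The cytosolic one also holds related symbols such as Rps19bp1, Rpl7l1, Rpl22l1 and Rpl10-ps3. The respiratory chain one also holds assembly factors such as Ndufaf1.

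Short motifs of factors known to act on nuclear genes of mitochondrial proteins were searched on both strands of the 300-base RefSeq windows, and no motif contains another. A gene counted as holding a motif if any of its windows did. The share of all 32851 windows counts single windows and not genes, so it is of an unlike unit. GCGCATGCG (NRF1) occurred in 7 of the 69 genes (10.1%), beside 4.55% of 6574 genes nearest a cluster and 1.75% of all 32851 windows. CCGGAAGT (ETS factors, among them GABP) occurred in 12 (17.4%), beside 10.1% and 3.89%. AAGATGGCG (YY1) occurred in 8 (11.6%), beside 4.09% and 1.4%. At least 1 of the 3 was in 26 genes (37.7%), beside 29.5% for cytosolic ribosomal protein genes, 31.9% for respiratory chain genes and 17.6% for genes nearest a cluster. GGGCGG (Sp1) was in 34 genes (49.3%, beside 70.6% of genes nearest a cluster) and TATAAA (the TATA box) in 5 (7.25%, beside 9.25%). The Sp1 share was 63.9% for cytosolic ribosomal protein genes and 43.1% for respiratory chain genes. TGACGTCA (CRE) was in 2 (2.9%, beside 3.59%) and TCAAGGTCA (ERR) in none, beside 0.274%. A match is a description of letters and not of a bound site.

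From Pre to Mid in run 1, most mitochondrial ribosomal protein promoters were lower in the fasted mice by a small amount, and 21 of the 79 fell while 2 rose. The test throughout was edgeR's quasi-likelihood test over all clusters with Benjamini-Hochberg adjustment and a threshold of 0.05. It called 14.8% of all 10776 clusters tested lower and 15.4% higher (30.2% in all), so the share of these promoters that fell (26.6%) stood above the background and the share that rose below it. The median log2 fold change was -0.12 against 0.01 for all clusters, and 65 of 79 values were negative. Large and small subunits were alike in this, with 13 of 50 and 8 of 29 lower, 1 each higher, and medians of -0.12 and -0.14. Removing any 1 of the 28 libraries left 18 to 24 calls. Scaling bore on the count more, with 35 calls under upper-quartile scaling and 5 with library size without TMM.

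**Figure D1:**
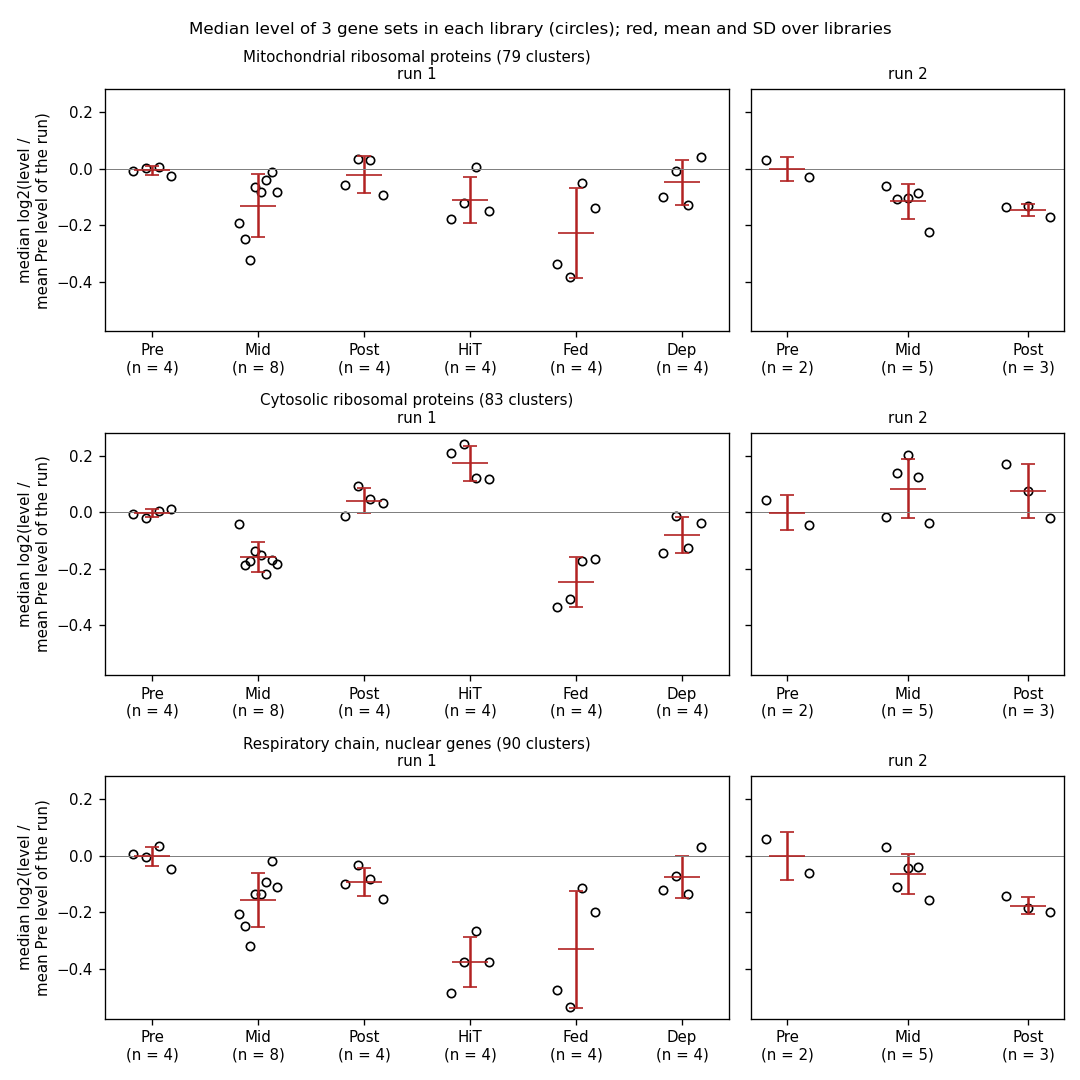
Each point is 1 library, and its height is the median over the clusters of a gene set of the log2 level relative to the mean of the Pre libraries of the same run. The red mark is the mean with the SD of a group. In run 1 the mitochondrial ribosomal protein median lay between -0.32 and -0.01 in Mid, between -0.39 and -0.05 in Fed and between -0.09 and 0.04 in Post.

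Taken per library, the median over the 79 clusters lay at -0.03 to 0.01 in the 4 Pre libraries of run 1 and averaged -0.13 ± 0.11 (SD, n = 8) in Mid. Mid 1, Mid 2 and Mid 3 were the lowest, at -0.19, -0.25 and -0.32, and the other 5 Mid libraries lay between -0.08 and -0.01. The summed level of all 79 clusters was 4994 ± 40.2 CPM in Pre (SD, n = 4) and 4565 ± 331 CPM in Mid (SD, n = 8), so the spread among Mid mice was the larger. The lists of cytosolic ribosomal proteins (34 of 83 lower, none higher, median -0.16) and of the nuclear respiratory chain (21 of 90 lower, none higher, median -0.17), both drawn by symbol, moved by about as much in the same comparison.

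Mrpl22, a protein lining the exit tunnel of the large subunit, gave the largest fall. Its level was 11.5, 12.9, 11.9 and 12.5 CPM in Pre and 5.33 to 9.23 CPM in Mid, with a median of 8.86. No Mid library reached a Pre library. The log2 fold change was -0.55 (SE 0.11, adjusted p = 0.00038). After food was returned it was 12.6, 12.9, 13.1 and 12.5 CPM in Post, all above every Mid library, a rise of 0.62 (SE 0.11, adjusted p = 7.88e-05) that returned it to the level of Pre.

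Mrpl49, a protein of the large subunit with no bacterial counterpart, followed the same course. It was 24.8, 24.9, 24.1 and 23.2 CPM in Pre, 16.3 to 20.4 CPM in Mid with a median of 18.3, and 23.6, 26.7, 24.6 and 22.02 CPM in Post. The Mid libraries lay below every Pre and Post library. The log2 fold changes were -0.38 (SE 0.08, adjusted p = 0.00039) into Mid and 0.38 (SE 0.08, adjusted p = 0.000327) out of it. Mrpl52, another large-subunit protein particular to mitochondria, went from 32.6, 33.3, 35.1 and 32.1 CPM in Pre to 22.7 to 28.7 CPM in Mid (median 25.9) and 30.7, 35.1, 34.9 and 33.4 CPM in Post. Again Mid did not overlap either group, with log2 fold changes of -0.36 (SE 0.08, adjusted p = 0.000864) and 0.37 (SE 0.08, adjusted p = 0.000519).

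In the small subunit, Mrps14, in the head of that subunit, fell from 54.0, 58.6, 61.1 and 53.7 CPM in Pre to 34.9 to 48.1 CPM in Mid (median 44.4), a log2 fold change of -0.39 (SE 0.09, adjusted p = 0.001). It stood at 50.3, 54.5, 52.6 and 49.8 CPM in Post, above every Mid library and, in 3 of 4 libraries, below every Pre library. Mrps16, mutated in an inherited defect of mitochondrial translation, was 28.3, 31.1, 29.9 and 27.1 CPM in Pre, 20.8 to 26.98 CPM in Mid (median 23.4) and 32.3, 28.8, 32.4 and 28.3 CPM in Post. Pre and Post lay above every Mid library, Pre by a narrow margin. The log2 fold changes of Mrps16 were -0.29 (SE 0.08, adjusted p = 0.00732) and 0.36 (SE 0.08, adjusted p = 0.00115).

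**Figure D2:**
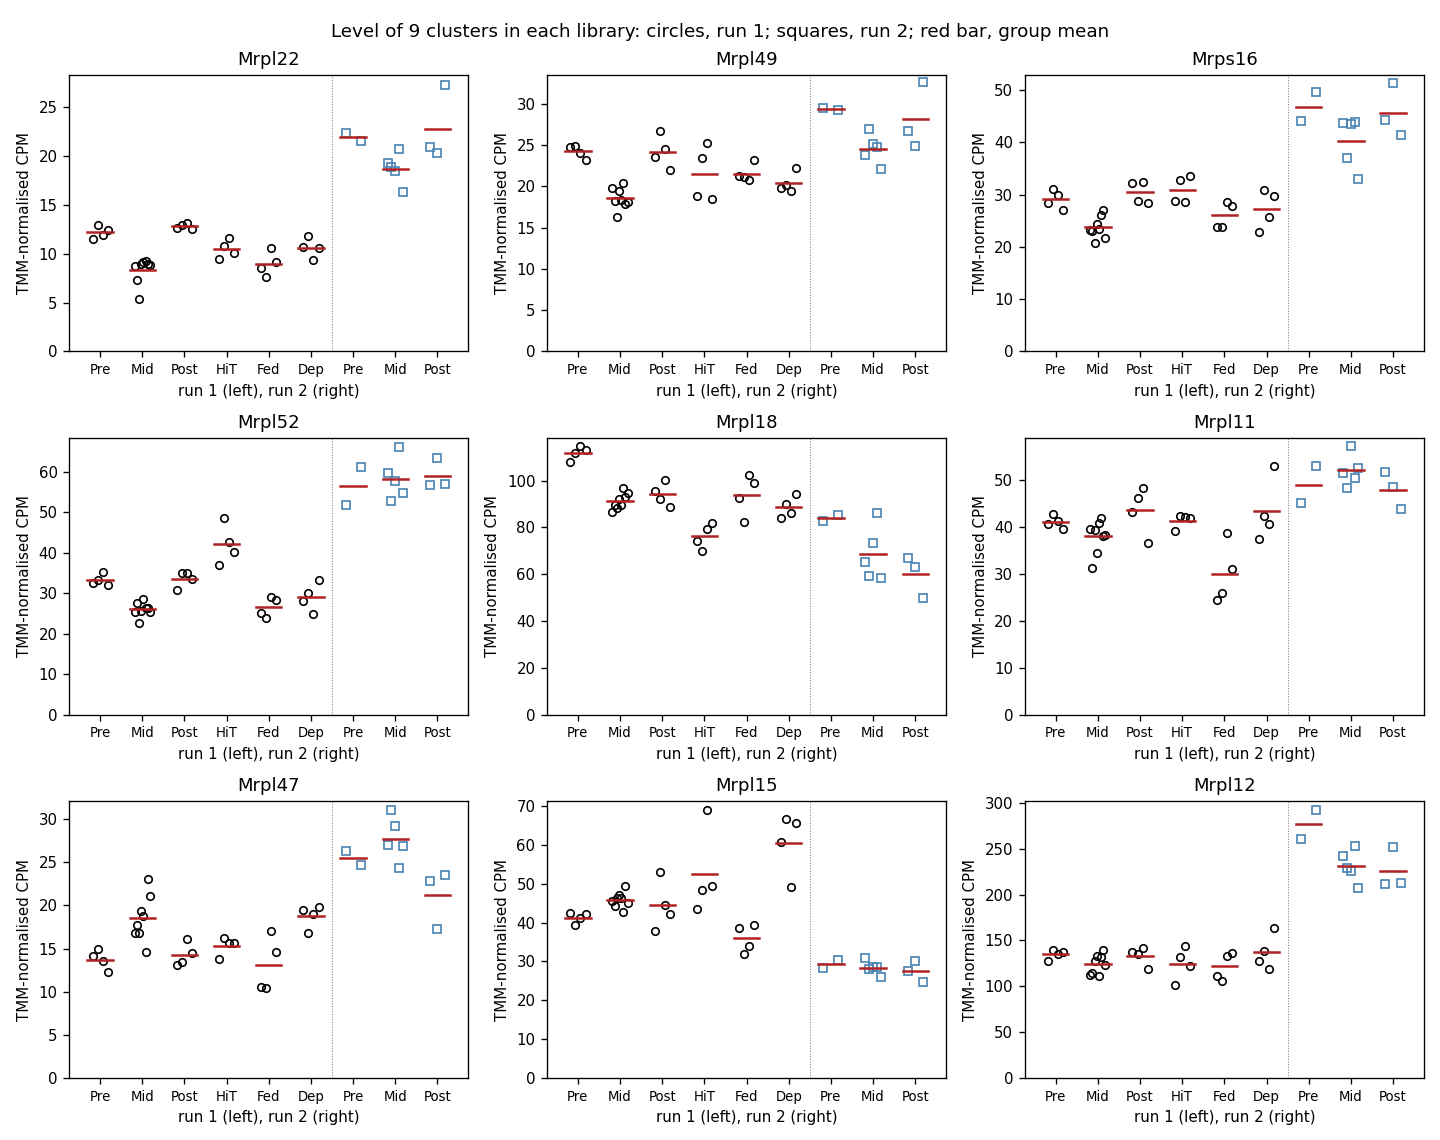
Each panel is 1 promoter, each point the TMM-scaled CPM of 1 library, by group and run. Mrpl22, Mrpl49, Mrpl52 and Mrps16 dip in Mid of run 1 and return in Post, Mrpl47 does the reverse, and Mrpl18 is below Pre in every other group of run 1.

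The promoters that rose into Mid were Mrpl47 and Mrps30. Mrpl47, which sits near the tunnel exit, was 14.2, 14.97, 13.5 and 12.2 CPM in Pre and 14.6 to 23.0 CPM in Mid (median 18.3), so the lowest Mid library lay within the range of Pre. It rose by 0.43 on the log2 scale (SE 0.12, adjusted p = 0.00723) and fell by 0.37 from Mid to Post (SE 0.12, adjusted p = 0.0162), where it was 13.1, 13.5, 16.2 and 14.5 CPM. Without Post 1 or Post 2 the fall to Post was no longer called. Mrps30, a large-subunit protein despite its symbol, was 31.1 to 33.1 CPM in Pre and 32.4 to 42.6 CPM in Mid with a median of 38.7, a log2 fold change of 0.28 (SE 0.06, adjusted p = 0.000991), and 1 of 8 Mid libraries fell inside the Pre range. Mrpl47 shares a divergent promoter with Ndufb5, which stood at -0.13 (adjusted p = 0.302).

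The other 16 promoters that fell had log2 fold changes between -0.34 (Mrpl34, adjusted p = 0.00735) and -0.14 (Mrps15, adjusted p = 0.0364). They included Mrpl18 (-0.29, adjusted p = 0.000216), Mrps36 (-0.30, adjusted p = 0.00526) and Mrpl23 at the tunnel exit (-0.19, adjusted p = 0.0377). Proteins of the stalk, where translation factors dock, did not pass: Mrpl12, known also to bind the mitochondrial RNA polymerase, had -0.12, Mrpl10 -0.20 and Mrpl11 -0.11. The same was so of Mrps12 at the decoding centre (-0.13), Mrpl58, which frees stalled ribosomes (-0.14), Mrps22 (-0.20), Mrpl3 (0.20), Mrpl44 (0.12) and Mrpl24 (-0.03). The paralogues Mrps18a, Mrps18b and Mrps18c had -0.05, 0.12 and -0.09. Of the Mrpl14 promoters, p1 had -0.17 and p2 0.02, neither called.

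Without regard to the model, the levels in Mid and Pre of run 1 did not overlap for 17 of the 79 promoters, 16 with Mid lower and Mrpl15 with Mid higher, where 7.31% and 7.54% of all clusters did so in those directions. Post lay above Mid without overlap for 10 of the 79 and 9.04% of all clusters, and below it for 1 and 7.98%.

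From Mid to Post in run 1, 14 promoters rose and 2 fell (Mrpl47, above, and Mrpl3, which reaches towards the peptidyl transferase centre, by 0.25, SE 0.09, adjusted p = 0.0239). Over all clusters 17.5% were called higher and 17.5% lower (35% in all), so the share of rises among these promoters (17.7%) equalled the background and the share of falls (2.53%) was below it. The median was 0.10 against -0.01 for all clusters, and 63 of 79 values were positive. After Mrpl22, Mrpl49, Mrpl52 and Mrps16, the largest rise was of Mrps34 (0.29, SE 0.09, adjusted p = 0.0164), and the smallest was 0.15 for Mrpl30. The call of Mrpl3 was lost without Mid 8, Post 1 or Post 3 and that of Mrps34 without Post 2. Without Post 1 or without Post 3 the count of calls was 10 in place of 16, with upper-quartile scaling it was 31 and without TMM 2. Over 4 red blood cell markers Post held 2018 to 2621 CPM and Mid 2989 to 4237 CPM, without overlap, and their part was not tested. The cytosolic ribosomal proteins had 42 of 83 higher with a median of 0.18, and the respiratory chain 3 of 90 higher and 3 lower with a median of 0.06.

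The promoters that both fell into Mid and rose out of it were 9: Mrpl22, Mrpl30, Mrpl48, Mrpl49, Mrpl52, Mrpl53, Mrps14, Mrps16 and Mrps26. Of all clusters, 10.8% did so, close to 9 of 79. Mrpl47 had the opposite course, as did 11.4% of all clusters. These comparisons share the Mid libraries.

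Against Pre, Post had a median of -0.00 over the 79 promoters and -0.01 over all clusters. Mrpl18, a large-subunit protein whose bacterial counterpart binds 5S rRNA, was the promoter called, and it fell by 0.25 (SE 0.06, adjusted p = 0.0363), where 0.798% of all clusters were called lower and 1.05% higher (1.85% in all). It was 108, 112, 115 and 113 CPM in Pre and 95.5, 92.1, 100.5 and 88.5 CPM in Post, without overlap, as for 5.53% of all clusters with Post lower. The call was lost when any 1 of 14 libraries was left out (every Pre library, Post 1, Post 2, Post 4, HiT 1, HiT 3, HiT 4, Mid 2, Mid 6, Mid 8 and Dep 4).

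In run 2 the same comparisons gave few calls. From Pre to Mid, 2 promoters fell and none rose, where 4.44% of all 10816 clusters were called lower and 5.3% higher (9.74% in all). The median was -0.10 against 0.00 for all clusters, and 61 of 79 values were negative, which is close to the median and count of run 1. With 2 Pre libraries, Mid lay below Pre without overlap for 17 of the 79 promoters and 16.3% of all clusters. Mrpl19, a large-subunit protein, was 39.3 and 39.0 CPM in Pre and 22.9, 29.1, 30.03, 25.8 and 23.5 CPM in Mid, without overlap (log2 fold change -0.57, SE 0.12, adjusted p = 0.0166). Mrps11, on the platform of the small subunit, was 32.6 and 34.4 CPM in Pre and 25.3, 28.6, 24.96, 23.3 and 21.1 CPM in Mid, also without overlap (-0.44, SE 0.11, adjusted p = 0.0279). Both calls were lost without Pre 5 or without Pre 6, the call of Mrps11 also without Mid 11 or Mid 12. Neither was called from Pre to Mid in run 1.

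None of the promoters called in run 1 was called from Pre to Mid in run 2. Mrpl22 was 21.5 and 22.3 CPM in Pre and 16.3 to 20.7 CPM in Mid, a log2 fold change of -0.23 (95% interval -0.52 to 0.06). Mrpl49 had -0.26, Mrps16 -0.22, Mrps14 -0.18, Mrpl18 -0.30, Mrps30 0.25 and Mrpl47 0.12. Mrpl52 had 0.05 (95% interval -0.19 to 0.29), the opposite sign to run 1. Of the 79 promoters 59 (74.7%) had the same sign in both runs, as had 75.2% of all clusters. Of the 23 called in run 1, 20 kept their sign, where 94.0% of all clusters called in run 1 did. Pearson's r between the runs across the 79 promoters was 0.42 (0.46 across all clusters), a description across genes of different mice and libraries, with scaling and base composition shared within a run.

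From Mid to Post in run 2 the median was -0.03 (-0.01 for all clusters, and 0.08 for the 79 with lane as a term), 50 of 79 values were negative, and 1 promoter fell, Mrpl47 (log2 fold change -0.39, SE 0.12, adjusted p = 0.0466), where 8.65% of all clusters were called lower and 7.73% higher (16.4% in all). It was 31.1, 24.4, 27.02, 29.2 and 26.96 CPM in Mid and 17.2, 22.8 and 23.5 CPM in Post, without overlap, and it was the promoter called in the same direction in both runs. In run 2 the call was lost on leaving out any 1 library other than Mid 10. It was also lost with the sequencing lane as a term, without TMM, with upper-quartile scaling and with only Mid and Post fitted, and it held with DESeq2 and filterByExpr. Mid 13 and all Post libraries shared a lane, so lane and recovery can hardly be told apart in this run. Leaving out Mid 10 or Mid 13 gave 2 calls among the 79. The signs of run 1 and run 2 were the same for 45 of 79 promoters (57.0%), against 75.1% of all clusters, and 11 of the 16 called in run 1 kept their sign, where 93.6% of all clusters called did. Pearson's r was 0.65 across the 79 and 0.65 across all clusters.

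**Figure D3:**
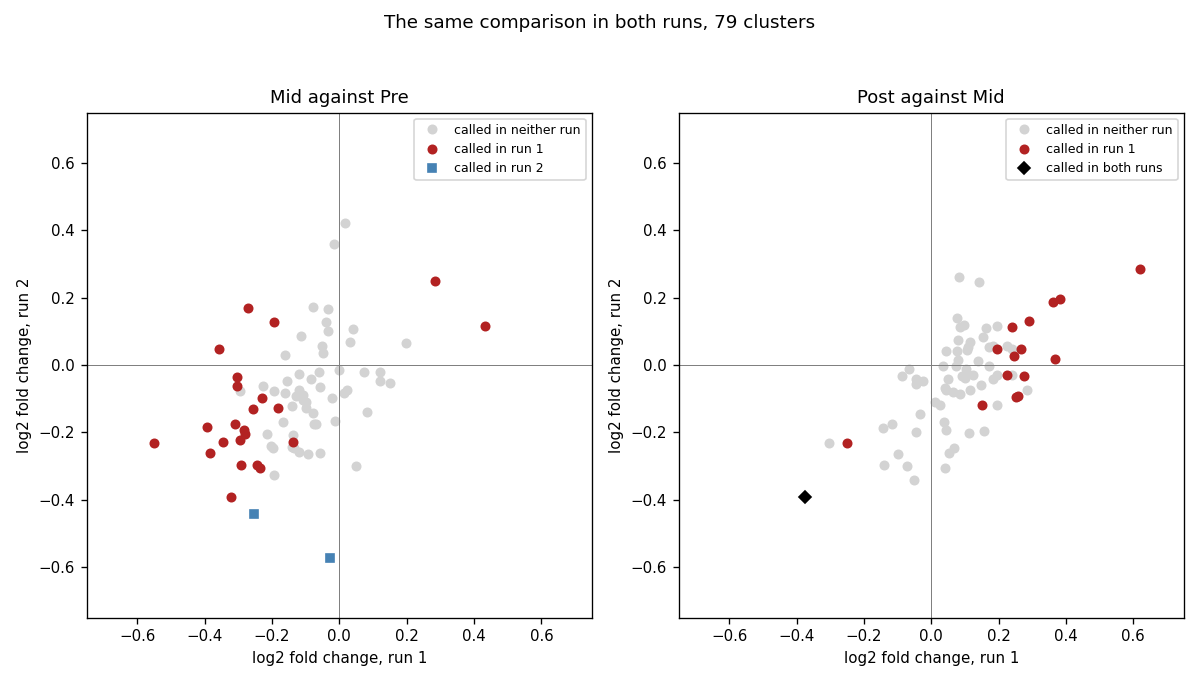
Each point is a mitochondrial ribosomal protein promoter, with its log2 fold change in run 1 on the horizontal axis and in run 2 on the vertical axis, for Mid against Pre and Post against Mid. For Mid against Pre 53 points lie below and left of the origin, and for Post against Mid most points lie to the lower right of the diagonal, with 69 of 79 fold changes larger in run 1 in the fit of both runs.

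The difference between runs was itself tested in 1 fit of all 38 libraries. It was called for none of the 79 promoters and 0% of all 10819 clusters in either comparison by edgeR. The smallest adjusted p among the 79 was 0.696 for Mid against Pre and 0.767 for Post against Mid. DESeq2 also called none of the 79. The difference for Mrpl22 in Mid against Pre, for example, was -0.32 with a 95% interval of -0.70 to 0.05, and the median standard error over the 79 was 0.151 for Mid against Pre and 0.137 for Post against Mid. Differences of this size were not detectable, and the absence of calls does not show that the runs were alike. The median difference (run 1 minus run 2) was -0.02 for Mid against Pre and 0.14 for Post against Mid, where 69 of 79 were positive and the median of all clusters was -0.01. In run 2, the Post libraries had per-library medians of -0.14, -0.13 and -0.17 and Mid libraries of -0.22 to -0.06, relative to Pre of that run, so the mean in Post (-0.15 ± 0.02, SD, n = 3) was not nearer to Pre than in Mid (-0.12 ± 0.06, SD, n = 5).

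Between Mid and HiT the mitochondrial ribosomal protein promoters went both ways. In Mid 8 were higher and 13 lower, against 19.2% and 21.8% of all clusters (41% in all), with a median of 0.01 (0.02 for all clusters). The lists on either side did not split in this way. The cytosolic ribosomal proteins had 68 of 83 lower in Mid, none higher, with a median of -0.32, and the respiratory chain had 47 of 90 higher, 3 lower, with a median of 0.23. All 8 promoters higher in Mid were of the large subunit by symbol (8 of 50 higher, 9 lower), and in the small subunit none was higher and 4 of 29 were lower. Without HiT 2 the count of calls was 12 and without HiT 4 it was 13, in place of 21.

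Mrpl52 had the largest difference, with 36.8, 48.6, 42.7 and 40.3 CPM in HiT against 22.7 to 28.7 CPM in Mid. Every HiT library lay above every Mid library, and also above every Pre library (log2 fold change of Mid against HiT -0.70, SE 0.08, adjusted p = 5.98e-08). HiT lay above Mid in this way for 11.4% of all clusters and above Pre for 18.5%. Mrps16 (-0.38, adjusted p = 0.000499), Mrpl22 (-0.33, adjusted p = 0.0173), Mrps10 (-0.31, adjusted p = 0.00294) and Mrpl17 (-0.29, adjusted p = 0.000709) followed, with Mrps12 at -0.29, Mrpl10 at -0.22 and Mrpl24 at -0.16 also called. In the other direction were Mrpl1, which forms the mobile stalk by which spent tRNA leaves (0.32, adjusted p = 0.00317), Mrpl55 (0.31, adjusted p = 0.00826), Mrpl4 (0.28, adjusted p = 0.000612), Mrpl28 (0.27, adjusted p = 0.0237) and Mrpl18 (0.26, adjusted p = 0.000571). Mrpl4 and Mrpl18 were higher in every Mid library than in any HiT library, as were 7.40% of all clusters. The call of Mrpl22 was lost without HiT 3, HiT 4 or Mid 2, that of Mrps10 without HiT 3 and that of Mrpl28 without HiT 2.

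Against Pre, HiT had 19 promoters lower and 3 higher, where 14.9% and 18.5% of all clusters were called (33.4% in all), and a median of -0.12 (0.04 for all clusters). Mrpl18 was 74.1, 69.9, 79.4 and 81.8 CPM in HiT, below every library of Pre (108 to 115 CPM) and of the other groups of run 1 (log2 fold change -0.55, SE 0.06, adjusted p = 4e-07). Mrpl42, a large-subunit protein particular to mitochondria, was 102, 108, 106 and 115 CPM in Pre and 69.1, 72.8, 91.4 and 61.7 CPM in HiT (-0.55, SE 0.11, adjusted p = 0.000293). Mrpl28 was 122, 124, 124 and 120 CPM in Pre and 83.05, 81.3, 92.5 and 85.1 CPM in HiT (-0.52, SE 0.11, adjusted p = 0.000603). For none of these 3 promoters did the groups overlap, and HiT lay below Pre in this way for 16.6% of all clusters. Mrpl1 had -0.44 (adjusted p = 0.000777), and Mrps6, whose window is shared with Gm49711 and Slc5a3, had -0.58 (SE 0.20, adjusted p = 0.0244), with 37.8 CPM in Pre 1 and 23.6 to 27.5 CPM in the other Pre libraries. Its call was lost without Pre 1 or HiT 2. The higher promoters were Mrpl15 (0.35, adjusted p = 0.0198), Mrpl52 (0.34, adjusted p = 0.00424) and Mrpl17 (0.24, adjusted p = 0.0166). The call of Mrpl15 was lost without HiT 3 or Pre 2 and that of Mrpl17 without HiT 1, HiT 4 or Pre 3. In this comparison the cytosolic ribosomal proteins had 26 of 83 higher, none lower, with a median of 0.16, and the respiratory chain had 64 of 90 lower, 1 higher, with a median of -0.38. Macrophage markers were higher in HiT, as given above, red blood cell markers summed to 1886 to 3284 CPM in HiT and 3601 to 5133 CPM in Pre, and the slow fibre markers summed to 9527 to 12233 CPM in HiT and 13083 to 14606 CPM in Pre. Their part in these differences was not tested.

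The Fed group was the lowest of run 1. Against Pre, 19 promoters fell and none rose, where 5.32% of all clusters were called lower and 5.88% higher (11.2% in all), so the share of these promoters (24.1%) was several times the background. The median was -0.21 (0.02 for all clusters), and 74 of 79 values were negative. The count rested on few libraries: it was 1 without Fed 1, 1 without Fed 2, 38 without Fed 3, 6 without Pre 1, 9 without Pre 2 and 9 without Pre 3. It was 0 without TMM and 2 when only the Fed and Pre libraries were fitted. Per library the median over the 79 promoters was -0.34 and -0.39 in Fed 1 and Fed 2 and -0.05 and -0.14 in Fed 3 and Fed 4. The summed level was 4316 ± 502 CPM (SD, n = 4). Fed 2 also held more red blood cell transcripts, with 13747 CPM over 4 markers against 2813 to 5020 CPM in the other Fed libraries, and their part in the result was not tested. Cytosolic ribosomal proteins (41 of 83 lower, median -0.24) and respiratory chain genes (52 of 90 lower, median -0.31) were lower in Fed as well, with none higher.

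Mrpl27, which reaches towards the peptidyl transferase centre, was 11.2, 10.4, 12.01 and 9.68 CPM in Pre and 5.91, 7.09, 9.08 and 7.56 CPM in Fed, without overlap (log2 fold change -0.54, SE 0.15, adjusted p = 0.0238). Mrpl11, at the base of the stalk, was 40.6, 42.8, 41.3 and 39.6 CPM in Pre and 24.4, 25.8, 38.8 and 30.9 CPM in Fed (-0.45, SE 0.12, adjusted p = 0.021). Its groups did not overlap, though Fed 3 came within 1 CPM of the lowest Pre library. Mrpl22 (-0.44, adjusted p = 0.0294), Mrpl41 (-0.40, adjusted p = 0.0336) and Mrps14 (-0.40, adjusted p = 0.0166) followed, and Mrps18a (-0.33) and Mrps36 (-0.30) were also called. All 5 of the largest falls were lost without Fed 1 or without Fed 2. Some were also lost without 1 Pre library: Mrpl27 (Pre 1 or Pre 3), Mrpl11 (Pre 1 or Pre 2), Mrpl41 (Pre 1, Pre 2 or Pre 3) and Mrpl22 (any of the 4).

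With the same Fed libraries, Mid against Fed had 12 promoters higher and 2 lower, where 16.6% and 18.6% of all clusters were called (35.2% in all), and a median of 0.08 (0.00 for all clusters), which was -0.06 without TMM. Mrpl47 was higher by 0.49 (SE 0.12, adjusted p = 0.00246), with 10.6, 10.4, 16.99 and 14.6 CPM in Fed against 14.6 to 23.0 CPM in Mid, where Fed 3 overlapped the lower Mid libraries and the other Fed libraries lay below them, Fed 4 by a narrow margin. Mrpl15 was 38.7, 31.96, 34.0 and 39.4 CPM in Fed and 42.7 to 49.3 CPM in Mid (0.35, SE 0.10, adjusted p = 0.00906). It was the promoter with no overlap in this direction, where 6.91% of all clusters had none. Mrpl41 (0.37, adjusted p = 0.00934), Mrpl11 (0.34, adjusted p = 0.0142) and Mrps18a (0.29, adjusted p = 0.0179) were called with all libraries and not without Fed 1 or Fed 2. Mrpl49 (-0.21, adjusted p = 0.0305) and Mrps15 (-0.13, adjusted p = 0.0461) were lower in Mid and did not overlap Fed, as 6.68% of all clusters did in that direction. The calls of Mrpl49 and Mrps15 were lost when any 1 of 8 and of 21 libraries of run 1 was left out. The count of calls was 5 without Fed 1 or Fed 2, 26 without Fed 3 and 23 without Mid 3. Mrpl4 was higher in Mid than in both HiT and Fed, and Mrpl49 lower than in both, where 6.37% and 6.41% of all clusters were.

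The torpor-deprived mice differed little from Mid. Against Mid, Dep had 2 promoters higher and none lower, where 1.16% of all clusters were called higher and 0.872% lower (2.03% in all), with a median of 0.09 (0.00 for all clusters, and -0.02 for the 79 without TMM) and 64 of 79 values positive. Mrpl45, which anchors the large subunit to the inner membrane, was 25.2, 26.9, 22.9 and 26.7 CPM in Dep and 16.5 to 22.3 CPM in Mid (0.43, SE 0.11, adjusted p = 0.0378). These ranges did not overlap, as for 1.29% of all clusters with Dep higher. Mrpl15, a core protein of the large subunit, was 60.8, 66.7, 49.1 and 65.5 CPM in Dep against 42.7 to 49.3 CPM in Mid, with Dep 3 inside the Mid range (0.40, SE 0.10, adjusted p = 0.0333). Both calls were lost without Dep 1, Dep 2, Dep 4 or Mid 2, that of Mrpl45 also without Mid 3 or Mid 5, and 4 promoters were called without Mid 7.

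Against Pre, Dep had 9 promoters lower and 7 higher, where 12.1% and 13.7% of all clusters were called (25.8% in all), and a median of -0.03 (-0.00 for all clusters). Mrpl15 led the rises (0.55, SE 0.11, adjusted p = 0.000793, from 39.3 to 42.5 CPM in Pre), with Mrpl45 (0.48, adjusted p = 0.00608), Mrpl47 (0.45, adjusted p = 0.0151), Mrps9 (0.34, adjusted p = 0.0482) and Mrpl3 (0.32, adjusted p = 0.0166). Mrps30 and Mrps18b were higher by 0.20 each. Mrpl18 led the falls (-0.34, SE 0.06, adjusted p = 0.000293), with 84.2, 89.8, 86.3 and 94.1 CPM in Dep. It was followed by Mrpl28 (-0.32, adjusted p = 0.0313), Mrps28 (-0.29, adjusted p = 0.0042), Mrpl30 (-0.27, adjusted p = 0.000606) and Mrpl4 (-0.25, adjusted p = 0.00823). The count of calls was 10 without Pre 2 and 9 without Pre 3. The call of Mrps9 was lost on leaving out any 1 of 15 libraries of run 1 and that of Mrpl28 any 1 of 9, that of Mrpl3 without Dep 4 or Pre 4, and that of Mrpl47 without Pre 4. In the Dep group 1 library held 133 CPM of neutrophil markers, against at most 0.936 CPM in Pre, and their part was not tested.

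**Figure D4:**
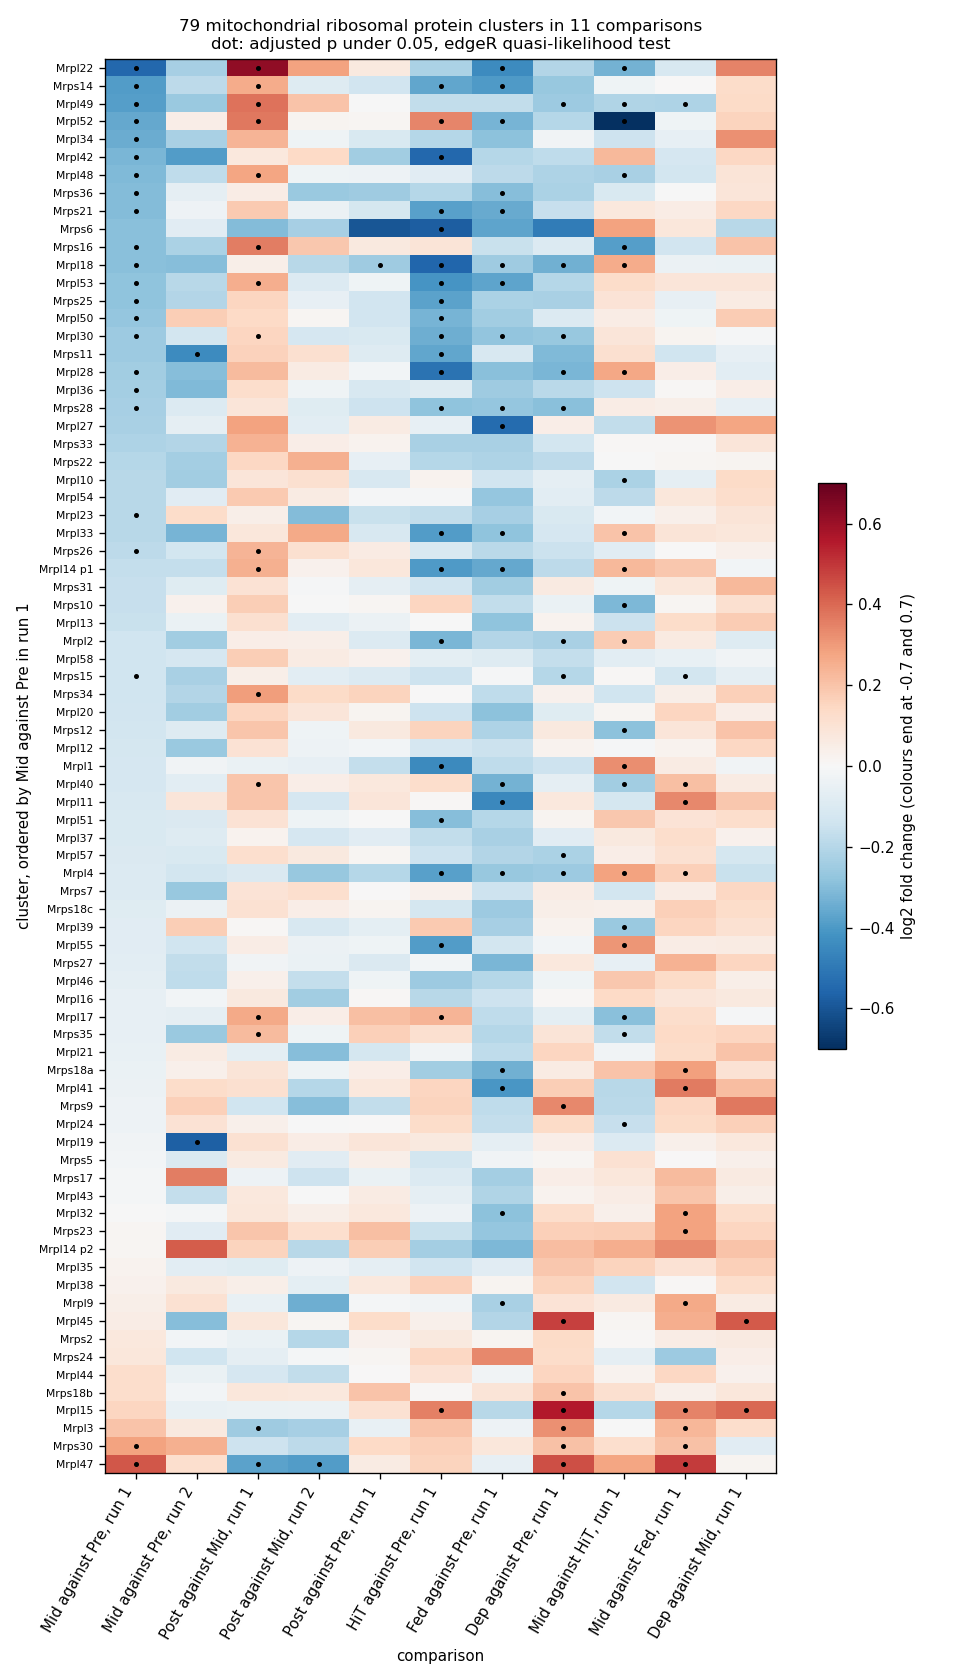
Rows are the 79 promoters and columns the 11 comparisons of runs 1 and 2, coloured by log2 fold change, with a dot where the adjusted p is below 0.05. The Fed against Pre column holds 74 negative values and the Post against Pre column 1 dot.

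Across the 9 comparisons of run 1, which share groups, 54 promoters were called at least once and 25 never, where 25.05% of all clusters were never called. The promoters never called included Mrpl12, Mrpl37, Mrpl54, Mrpl44, Mrpl58, Mrps18c, Mrps22 and Mrps33. Mrpl18 was called most often, in 6 comparisons. It was lower than Pre in Mid, Post, HiT, Fed and Dep, all set against the same 4 Pre libraries, and in run 2 it was 85.4 and 82.8 CPM in Pre, 58.4 to 86.3 CPM in Mid and 49.8 to 66.9 CPM in Post, where Mid overlapped Pre and neither Mid against Pre nor Post against Mid was called. Its divergent partner Tcp1, a cytosolic chaperonin subunit 358 bp away, had 0.10 from Pre to Mid (adjusted p = 0.191) and 0.04 in HiT against Pre (adjusted p = 0.645). Mrpl30 and Mrps28 were also lower than Pre in Mid, HiT, Fed and Dep.

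The spread between mice was small for these promoters. The median coefficient of variation over the 79 was 5.08% in Pre, 9.80% in Mid, 6.55% in Post, 6.99% in HiT, 11.8% in Fed and 7.22% in Dep of run 1. Set beside them were the clusters whose group mean lay between the lowest and highest of the 79 (7051 to 8352 by group). Their medians were 7.98%, 13.1%, 9.30%, 10.99%, 11.1% and 10.1%. The median of the mitochondrial ribosomal protein promoters was below that of these clusters in every group of run 1 but Fed. In Fed, Fed 1 and Fed 2 stood below the other libraries. Levels were not matched within that range, so a part of level in the difference was not tested.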

How the data were processed

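Per the labels and the study's methods, RNA 5′ ends of mouse soleus were sequenced by non-amplified CAGE, mapped (BWA and HISAT2 on mm10/GRCm38 are named in the submitters' processing notes, without versions) and grouped into clusters with PromoterPipeline. The deposited table holds raw tag counts per cluster and library and, beside them, TPM made by the authors by dividing by the library's total. Per the file headers the counts are rescued tag counts, so tags that map to several places may be shared between near-identical copies. TPM was used for mean levels over all libraries, and all other values were computed here from the counts. Samples named as replicates are separate mice, so p-values measure the spread between these mice. Libraries of 1 group differed by more than sampling noise (chi-square per cluster of 12.4 or more in 72 pairs), and no column of per-sample values was left unused.

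Clusters were matched to GENCODE M21 5′ ends (500 bp, same strand). In the other gene lists and the markers, a gene with several clusters was represented by the one with the highest mean TPM over all libraries. The members and the gene lists were chosen with earlier results of these data known. Counts were scaled by TMM within each run and tested with edgeR 4.0.16 (quasi-likelihood, R 4.3.3) on 10776 clusters for run 1 (28 libraries, all groups sharing 1 spread) and 10816 for run 2 (10 libraries), with Benjamini-Hochberg adjustment over all clusters and two-sided tests at 0.05. The difference between runs was tested in 1 fit of 38 libraries (10819 clusters). The scripts were tested on simulated data with 200 changed clusters in each trial. Of changes of 1 on the log2 scale, 71.5% to 85.5% were called, and of changes of 0.3, 0% were. Trials covered Mid against Pre in both runs, Fed against Pre and the difference between runs in Post against Mid. Fewer clusters changed there than were called in most comparisons here, so these shares need not carry over. The 0% at 0.3 does not describe the mitochondrial ribosomal protein promoters. From Pre to Mid in run 1, Mrpl18 (log2 fold change -0.29) and Mrps30 (0.28) were called at smaller changes. A promoter that was not called is not shown to be unchanged. Run, sequencing and set of mice cannot be told apart, so levels were not tested between runs. Mean TPM pools both runs. Intervals and limits for counts of 0 (3 counts) cover counting error only.

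Named one by one were the 5 promoters with the highest and the 3 with the lowest mean TPM, up to 5 called promoters in each direction and comparison by size of change, genes with more than 1 cluster, promoters called alike in both runs, members of known role, all regulators and up to 3 called genes in each direction of the other lists. Others are given by counts, and further names (Mrpl42 and Mrpl49 among the levels, divergent partners) were chosen after their values were seen. Alternatives were DESeq2 1.42.0, upper-quartile scaling, library size without TMM, filterByExpr, only the groups compared, all 38 libraries, a 100 bp window, the replicate number as a block, lane in run 2 and leaving out each library. Genes of these lists without a cluster, among them Nrf1, Gabpb1, Gadd45gip1 and Tfb1m, were not analysed here. The authors' own comparisons were not used.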

Additional observations from a re-analysis of the deposited data

Results flagged for a closer look

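Within groups of 4 to 8 libraries, 8 of 224 group ranges of the 31 promoters named by the rule had 1 library far from the rest of its group, its gap to the nearest library being large against the range of the group. Chance alone puts about 1 in 20 groups past this limit. Mrps34 was 169 CPM in HiT 3, with the next library at 140 CPM. HiT 3 was also apart for Mrps14 (46.5 CPM, next 43.5), Mrpl27 (11.4 CPM, next 10.1) and Mrpl3, where it was the lowest (70.6 CPM, next 77.4). HiT 1 was the lowest for Mrpl11 (39.0 CPM, next 41.9) and the highest for Mrpl17 (173 CPM, next 158). Mrpl19 was 34.9 CPM in Dep 4 (next 28.7), and Mrps15 was 159 CPM in Pre 4 (next 147).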

How the results depend on the processing

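Numbers given are calls among the 79 promoters. Library size without TMM moved the median of all clusters by up to -0.18 (Dep against Pre; -0.13 HiT against Pre, -0.12 Mid against Fed, 0.11 Mid against HiT) and left 5 calls for Mid against Pre in run 1, 2 for Post against Mid in run 1, 2 for Mid against HiT, 4 for Dep against Pre, 2 for Post against Mid in run 2, and 0 for Post against Pre, Mid against Fed, Fed against Pre and Dep against Mid. Upper-quartile scaling gave 35 for Mid against Pre and 31 for Post against Mid in run 1, 2 for Post against Mid in run 2 and 0 for Post against Pre. Under both scalings the 2 calls of run 2 were of higher promoters, and Mrpl47 was not called. With only the groups compared, the calls were 4 for Mid against Fed, 2 for Fed against Pre, 1 for Mid against Pre in run 2, and 0 for Dep against Mid, Post against Pre and Post against Mid in run 2. DESeq2 gave 4 for Dep against Mid and 3 for Post against Mid in run 2, where lane as a term and the 100 bp window gave 0. All 38 libraries in 1 fit gave 4 for Post against Pre. The split of higher and lower calls moved for Dep against Pre from 7 and 9 to 3 and 17 (upper quartile) or 0 and 4 (no TMM), for HiT against Pre from 3 and 19 to 1 and 28 or 0 and 17, and for Mid against HiT from 8 and 13 to 10 and 10 (DESeq2). The medians of Mid against Fed (-0.06) and Dep against Mid (-0.02) turned negative without TMM, and that of Post against Mid in run 2 turned positive with lane (0.08), without TMM (0.05) and with upper quartiles (0.02). The cause of these changes was not tested.

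Leaving out 1 library gave 18 to 24 calls for Mid against Pre, 10 to 20 for Post against Mid, 0 to 1 for Post against Pre, 12 to 23 for Mid against HiT, 5 to 26 for Mid against Fed, 0 to 4 for Dep against Mid, 19 to 24 for HiT against Pre, 1 to 38 for Fed against Pre and 9 to 18 for Dep against Pre in run 1, 0 to 2 for both comparisons of run 2 and 0 to 0 for the differences between runs. For the 60 named calls, 2001 alternative values gave 1783 with the same call, 218 no longer called and 0 of the opposite sign. Mrpl22, Mrpl49, Mrpl52 and Mrps14 from Pre to Mid kept their call in every alternative.

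With the replicate number as a block, the calls were 25 for Post against Mid and 3 for Mid against Fed in run 1, and 27, 17, 22, 17, 15, 2 and 1 for Mid against Pre, Mid against HiT, HiT against Pre, Fed against Pre, Dep against Pre, Dep against Mid and Post against Pre. The numbers do not pair mice: same-numbered libraries of different groups had a mean correlation of -0.03 over 60 pairs (0.01 over 260 other pairs), and 5 of 24 libraries were closest to their own number. In run 2 no paired analysis was possible because Mid shares no number with Pre or Post.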

Other observations

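Genes that work on the mitochondrial ribosome were examined by lists for Mid against Pre in run 1, where 14.8% of all clusters were called lower and 15.4% higher. Of 15 translation factors with a cluster, 6 fell and none rose, among them Mtfmt, which formylates the initiator tRNA (log2 fold change -0.47), Mtif2, an initiation factor (-0.31), and Taco1, an activator of COX1 translation (-0.30), with a list median of -0.00. Of 15 assembly factors, 3 rose (Mrm3 by 0.37, Eral1 by 0.29 and Mpv17l2 by 0.19) and 2 fell (Mrm1 by 0.46 and Nsun4 by 0.37), with a median of 0.04, shares near those of all clusters. The rRNA methyltransferases Mrm1 and Mrm3 thus passed the test in opposite directions. The 4 further ribosomal proteins with a cluster had a median of -0.07 and no call, and of 4 mitochondrial transcription genes Tfb2m (0.30, adjusted p = 0.0079) and Polrmt (0.27, adjusted p = 0.0072) rose.

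Regulators known to act on such promoters were also measured, each by 1 cluster. For a gene with several clusters it was the one with the highest mean TPM over all libraries, among which Mid is the largest group. Other starts of these genes were not examined here. Ppargc1a, the coactivator PGC-1α, rose from Pre to Mid by 4.78 on the log2 scale (SE 0.67, adjusted p = 7.07e-06), Gabpa, the DNA-binding subunit of GABP, by 0.57 (adjusted p = 4.78e-06) and Pprc1 by 0.55, while Ppargc1b fell by 0.86. Esrra (0.29) and Yy1 (0.19) did not pass. Post against Mid gave -5.97 for Ppargc1a, -0.56 for Gabpa, -0.74 for Pprc1, -0.61 for Esrra and 0.97 for Ppargc1b.

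Mrpl42 was 102 to 115 CPM in the Pre libraries of run 1 and 13.5 and 18.5 CPM in those of run 2. Sequencing run and set of mice cannot be told apart for this value, and the difference was not tested.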
